A study of Mus musculus with 20 samples.

Results

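The loci described here are those of 37 genes known from T lymphocytes and other leukocytes, out of 21951 protein-coding genes in the annotation. They were chosen by name, and with earlier results of these data known, so their values are a description and carry no test. A gene was said to have a promoter peak in a library if an ATAC-seq peak overlapped the 2 kb on either side of one of its annotated start sites, and peaks within 20 kb of the gene's span were counted apart. ATAC-seq marks accessible chromatin by letting the Tn5 transposase cut and tag it. The study asked how chromatin opens while mouse embryonic fibroblasts (MEFs) are turned towards pluripotency. It compared the MEFs (1 library) and embryonic stem cells (ESCs, 3 libraries) with MEFs that had received retroviruses for Oct4 together with either native Nanog (the Nanog path) or NanogN70 (the NanogN70 path), with 1 library for each of 8 days between day 0 and day 12 (0, 1, 3 and 5, then 7, 8, 10 and 12) in each path.

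NanogN70, also named NanogBiD in the study, is NANOG with the BRG1-binding part of SS18 joined to its N-terminus, so that it can recruit the BAF chromatin remodelling complex. The MEFs of both paths came from embryos of OG2 males, which carry an Oct4-GFP reporter, mated to wild-type females of another strain. Both paths shared Oct4, the retroviral vector and the change of medium after day 7. Cultures were sampled in bulk, with no sorting for infected or GFP-positive cells named for these libraries. The ESC samples are named ESC in their titles and MEF in their source field, and they were grouped by title. Nothing in the labels describes the 3 ESC libraries as separate cultures, so their spread may be technical.

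T lymphocytes recognise antigen through a receptor whose variable chains are carried to the surface and connected to the cell interior by the CD3 and zeta chains. When the receptor and a co-receptor, CD4 or CD8, engage a target, the kinases LCK and ZAP70 phosphorylate those chains and the adaptors LAT and LCP2, and costimulatory receptors such as CD28 add to the signal. Fibroblasts and pluripotent cells do not carry this receptor. Transcription factors of the ETS, RUNX, TCF/LEF, GATA and Ikaros families, several of which also act in other tissues, control these genes as T cells develop in the thymus.

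The library labelled NanogN70 day 3 was unlike the rest of the series, and whether its content matches its label was not tested. Values at vector and fibroblast genes are given below as a description. All 37 genes had a promoter peak in it, against 11 in the NanogN70 day 1 library, 16 in the day 5 library and 10 to 20 in the other 15 time course libraries. The share of all protein-coding genes with a promoter peak was 67.3% in that library, within the range of 61.1% to 68.3% in the other 15. MEFs had a promoter peak at 19 of the 37 genes (70.2% of all genes), and the ESC libraries at 23, 24 and 24, a mean of 23.7 ± 0.577 (SD, n = 3), of which 22 were shared by all 3 (69.6% of all genes). By day, the counts of the Nanog path were 13, 10, 13, 15, 15, 15, 13 and 13 from day 0 to day 12. The NanogN70 path gave 12, 11, 37, 16, 20, 14, 14 and 17. With 1 library per day, the difference between day 3 and its neighbours has no replicate check. In bulk cultures a smaller share of open cells and less accessible DNA per cell cannot be told apart.

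**Figure D1:**
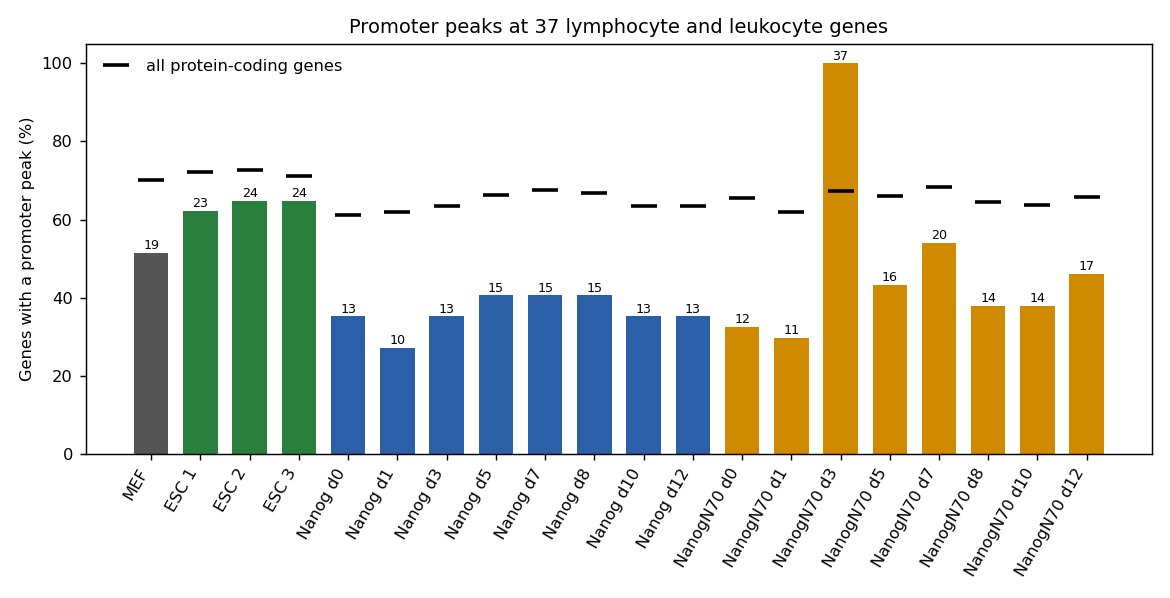
Share of the 37 genes with a promoter peak in each of the 20 libraries (bars, in %, with the number of genes above each bar; MEF grey, ESC green, Nanog path blue, NanogN70 path orange) beside the share of all 21951 protein-coding genes (black dashes). The NanogN70 day 3 bar reaches 37 genes, while the other time course bars stand at 10 to 20 genes and the dashes at 61.1% to 68.3%.

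The same library also differed in general measures, which move with every value below and whose part in them was not tested. Read depth is unknown. The median pileup, the number of tags stacked at a peak's summit, over the 14217 regions open in all 20 libraries (the shared median) was 60 on NanogN70 day 3 and 16 to 41 in the other libraries. The number of peaks, 84172, lay between those of NanogN70 day 0 (107038) and day 10 (44126), next to 77662 on day 1 and 83245 on day 5. Of the 76678 regions with a peak in it, 17866 (23.3%) had a peak nowhere else in the series, a share that was 1.45% to 14.3% at the remaining time points and 29.0% for MEFs. A peak at Nanog exon 2, where vector DNA aligns, had pileups of 428, 236, 32 and 16 on NanogN70 days 0, 1, 3 and 5, and of 559, 299, 84 and 21 on the same Nanog days. As multiples of the shared median these were 17.8, 14.8, 0.53 and 0.70 with NanogN70 and 34.9, 18.7, 3.65 and 0.75 with Nanog, so on this scale NanogN70 day 3 was below both of its neighbouring days and below Nanog day 3. Of 9 fibroblast genes, 8 had a promoter peak in this library and 9 on days 1 and 5, and Prrx1 was the gene without one. Shared medians on days 1, 3 and 5 were 16, 60 and 23. Pileups on these days were 19, 22 and 30 at Fn1, 11, 8 and 11 at Col1a2 and 12, 11 and 13 at Twist1. Pdgfrb had 12, 20 and 14, Postn 6, 12 and 14 and Prrx1 7, 0 and 8. Col1a1 had 16, 50 and 20, Pdgfra 17, 46 and 18 and Thy1 11, 48 and 6. Relative to the shared median, each gene but Thy1 was lower on day 3 than on both neighbouring days. Setting this library aside, no time course library had promoter peaks at more than 20 of the 37 genes, and the 7 genes Cd3g, Cd4, Cd8b1, Lcp2, Trat1, Ccr7 and Cd48 had none in the rest of the series.

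Against days 1 and 5 of the same path, 21 of the 37 genes had a promoter peak on day 3 and on neither of the other days, where 3.6% of all protein-coding genes did. Of the other 16 genes, 11 had a promoter peak on all 3 days (59.4% of all genes), and the remaining 5 had one on days 3 and 5. Since all 37 genes had a peak on day 3, none could have one on day 1 or day 5 and not on day 3 (3.88% of all genes). For the same reason, all 21 of the 37 genes closed on both neighbouring days had a peak on day 3 (11.1% of all such genes). Neither value adds to the count of 37. In the Nanog path, 1 of the 37 genes had a promoter peak on day 3 and on neither day 1 nor day 5 (0.638% of all genes), which was Cd247 with a pileup of 8. The 7 genes with a promoter peak in no other library compare with 0.793% of all genes. This count depended on the settings, and was 12 with a minimum peak score of 100, 13 with equal numbers of top peaks in each library and 11 with the 5′ end of the gene as its only start site, where the share of all genes was 1.07% to 1.22%. A promoter peak on day 3 and in no other time course library was found at 14 genes (1.4% of all genes).

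**Figure D2:**
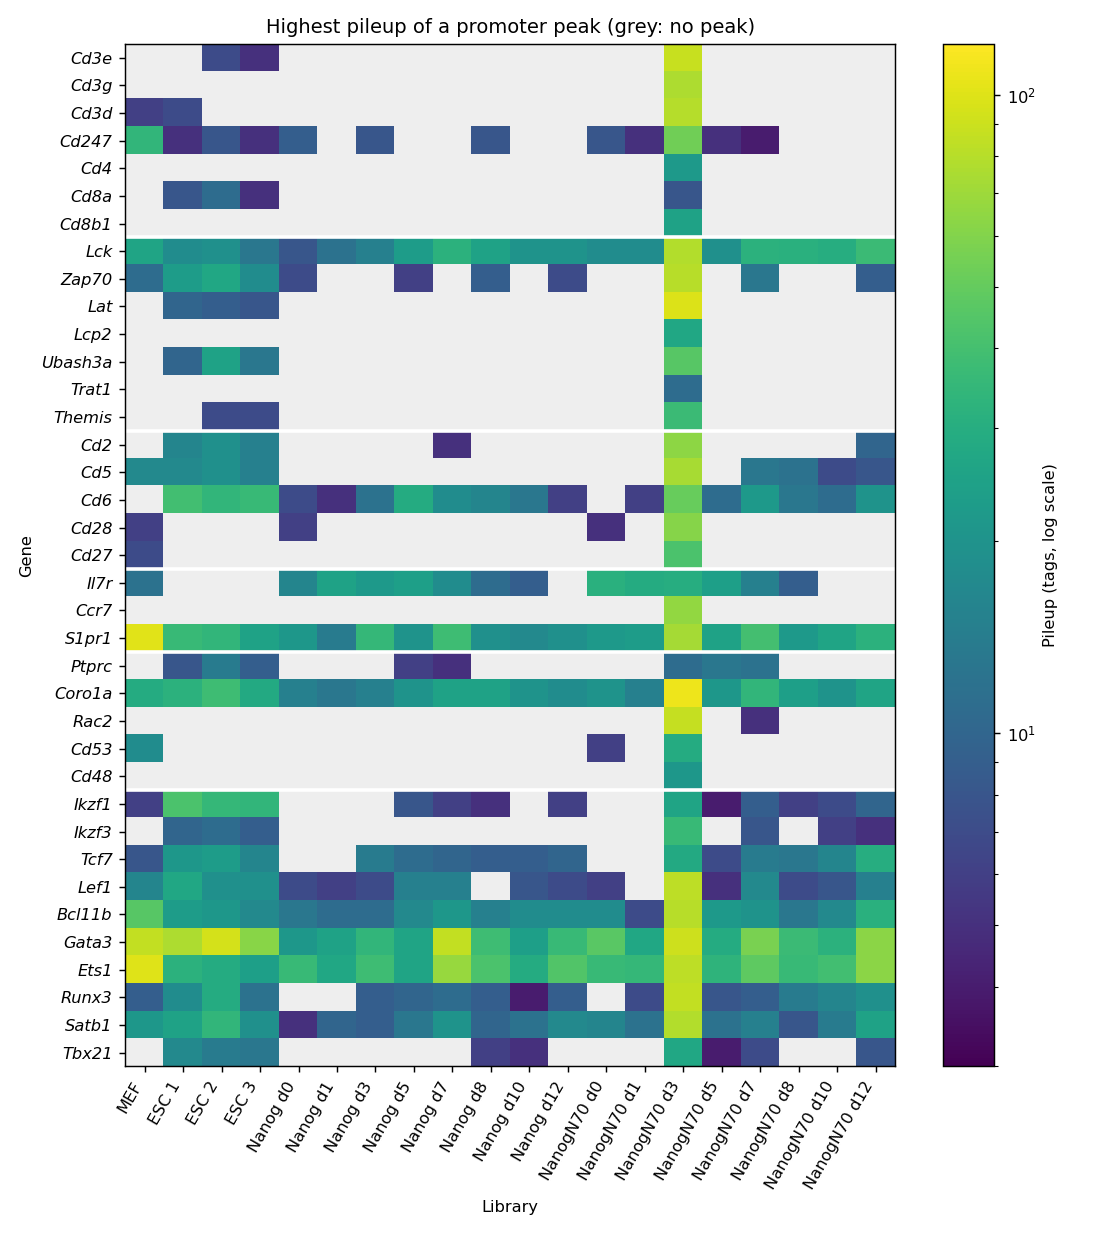
Highest pileup of a promoter peak (colour, tags on a log scale, not scaled to depth) at each of the 37 genes (rows, in 6 groups by role) in each of the 20 libraries (columns), with grey where there was no peak. The NanogN70 day 3 column is filled at all 37 genes, the rows of the CD3 genes, the co-receptors and the adaptor genes Lat, Lcp2 and Trat1 are mostly grey elsewhere, and 8 of the 10 transcription factor rows at the bottom, all but Ikzf3 and Tbx21, are filled in 14 or more libraries.

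The genes of the antigen receptor complex and its co-receptors, apart from Cd247, were among those with the fewest peaks elsewhere. Of the 7, 6 had a promoter peak on day 3 and on neither day 1 nor day 5. Cd3e, Cd3g and Cd3d, which encode the CD3 chains, lie next to each other on mm10 at chr9:44969572-45009627. Cd3e had a day 3 pileup of 88 in a peak 28 bp upstream of a start site, at chr9:45009016-45010052, and pileups of 7 and 5 in ESC replicates 2 and 3. It had no promoter peak in the other 17 libraries. Cd3g had a pileup of 76 on day 3 at chr9:44980154-44980701 and no peak in the other 19 libraries. Cd3d had a pileup of 80 on day 3, 6 in MEFs and 7 in ESC replicate 1, and none elsewhere. The element of 80 lay 683 bp downstream of an internal start site and was shared with MEFs. The ESC peak lay at another element, which had no peak on day 3. At the 5′ end of the gene, 42 bp upstream, the day 3 pileup was 39 with a score of 79.42, and that element was open in no other library. The 3 CD3 genes are not independent observations, since Cd3g and Cd3d share 3 day 3 promoter peaks.

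The co-receptor genes had weaker peaks. Cd8b1 had a day 3 pileup of 25 and a score of 684.77 (scores are MACS p-values on a scale of -10 log10), with no peak in the other 19 libraries. Its peak lay 213 bp from its own start site and 342 bp from that of the neighbouring gene Smyd1. Cd8a had a pileup of 8 on day 3, where the shared median was 60, and of 8, 11 and 5 in the ESC libraries, where it was 32, 38 and 29. It had no promoter peak in MEFs or in the other 15 time course libraries. Its day 3 score of 65.18 was higher than those of 18.8% of the peaks in that library, the lowest rank among the 37 genes. Cd4 had a promoter peak on day 3 only, with a pileup of 22. That peak begins 1680 bp from a start site, and a stronger one with a pileup of 67 lies 2627 bp away, outside the promoter window. Cd247, which encodes the zeta chain, had promoter peaks in 11 other libraries, with pileups of 34 in MEFs, 5 to 8 in ESCs and 4 to 9 in the 7 other time course libraries that had one, against 54 on day 3. The day 3 peak of 54 lies 44 bp upstream of the start site and was shared with the 3 ESC libraries (pileup up to 8) and with no other time course library. The peak of 34 in MEFs lies 1415 bp downstream. That element was also open on day 3, with a pileup of 42 and the highest day 3 score of the gene (672.2). It was open in 4 other time course libraries as well (pileup up to 8).

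Of the genes for proximal signalling from the receptor, 6 of 7 had a promoter peak on day 3 and on neither neighbouring day, and they had some of the strongest peaks. Lat, the adaptor on which the signalling complex assembles, had a pileup of 99 on day 3, pileups of 10, 9 and 8 in the ESC libraries and no peak in the other 16. Lcp2, a partner adaptor of LAT, had 27 on day 3 and no peak in the other 19 libraries. Trat1, an adaptor associated with the receptor, had 11 on day 3 and none elsewhere. Ubash3a, a negative regulator of receptor signalling, had 46 on day 3 and 10, 25 and 13 in the ESC libraries. Themis, needed for thymocyte selection, had 37 on day 3 and 7 in each of ESC replicates 2 and 3. In Ubash3a the ESC peak was a separate element, 43 bp upstream of an internal start site, that had no peak on day 3, and the 4 day 3 elements had no peak in any other library.

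Zap70 and Lck, the kinases of the pathway, had promoter peaks in other libraries, which at Lck lay at other elements than on day 3. Zap70 had pileups of 11 in MEFs, 23, 27 and 18 in ESCs, 6 to 13 in 6 of the other time course libraries, and 81 on day 3. The element of 81, at chr1:36760824-36762344 around the first start site, was open in no other library. An element with a day 3 pileup of 34 was shared with MEFs (11) and 2 other time course libraries (up to 9), and one with 21 was shared with the 3 ESC libraries (up to 10). The element that reached 27 in the ESC libraries and 13 in the time course, 284 bp downstream of an internal start site, had no peak on day 3. Lck had a promoter peak in all 20 libraries, with pileups of 8 to 37 in the other 19 and 79 on day 3. An element 146 bp upstream of one of its internal start sites, at chr4:129555787-129556792, had a peak in the other 19 libraries (pileups of 8 to 37) and none on day 3. On day 3 the peaks were instead at chr4:129558018-129558964 (pileup 79), at chr4:129573327-129574130 over the 5′ end of the gene (pileup 79) and at chr4:129574965-129575758 (pileup 71), and these 3 elements were open in no other library. A count of promoter peaks therefore lists Lck as open throughout, while none of the elements it was open at on day 3 was open on any other day.

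Among the surface receptors for adhesion and costimulation, 4 of 5 had a promoter peak on day 3 and on neither neighbouring day, and each of the 5 had a peak in at least 1 other library. Cd28, the main costimulatory receptor of T cells, had 61 on day 3, 6 in MEFs, 6 on Nanog day 0 and 5 on NanogN70 day 0, and no peak in ESCs. The MEF and day 0 peaks lay in another element, 1830 bp upstream of a start site, while the day 3 peak lay 17 bp upstream. Cd27, a costimulatory receptor of the TNF receptor family, had 42 on day 3, 7 in MEFs and none elsewhere. Cd2, an adhesion receptor whose ligand in mice is CD48, had 64 on day 3, 16, 19 and 15 in ESCs, 5 on Nanog day 7 and 10 on NanogN70 day 12. Cd5, which dampens receptor signalling, had 74 on day 3, 17 in MEFs, 17, 19 and 15 in ESCs and 7 to 13 on NanogN70 days 7 to 12. Its element at the 5′ end of the gene was open on day 3 only. Cd6, a relative of Cd5 in the same chromosomal region, had a promoter peak in 17 other libraries, with 5 to 29 at the other time points that had one, 34 to 39 for ESCs and 51 on day 3. That element of 51, at chr19:10829193-10830188, was again open on day 3 only, while a neighbouring one 1575 bp upstream was open in 17 other libraries.

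The receptors for cytokines and migration included a gene with a different course. Il7r, the receptor chain for the survival cytokine IL-7, had pileups of 16, 25, 22, 24, 18, 11, 9 and 0 in the Nanog path in order of day. The same days gave 31, 29, 30, 24, 15, 9, 0 and 0 with NanogN70, and MEFs had 12 and ESCs none. It was thus open early in both paths and without a peak late in both. An element 34 bp upstream of the 5′ end, with a pileup of 25, was open on NanogN70 day 3 and in no other library. Ccr7, which guides T cells into lymph nodes, had 66 on day 3 and no peak in the other 19 libraries. S1pr1, which guides them out again and is also an endothelial receptor, had a peak in all 20 libraries, with 73 on day 3, 102 in MEFs, 25 to 36 in ESCs and 14 to 40 at the other time points.

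Of the 5 genes expressed across leukocytes, 3 had a promoter peak on day 3 and on neither neighbouring day. Coro1a, an actin regulator, had a peak in all 20 libraries, with 13 to 38 elsewhere and 110 on day 3, the highest pileup among the 37 genes. Of its 4 elements open on day 3, those with pileups of 82 and 58 were open in no other library and the other two were open in all 20. Rac2, a small GTPase of haematopoietic cells, had 87 on day 3, 5 on NanogN70 day 7 and none elsewhere. Cd53, a leukocyte tetraspanin, had 29 on day 3, 18 in MEFs and 6 on NanogN70 day 0. Cd48, the ligand of CD2, had 21 on day 3 and no peak in the other 19 libraries. Ptprc, which encodes the leukocyte phosphatase CD45, was weak throughout, with 11 on day 3, 13 and 12 on NanogN70 days 5 and 7, 6 and 5 on Nanog days 5 and 7 and 8, 14 and 9 in ESCs. The elements differed here too, since the day 3 peak lay over a start site at the 5′ end and was open in no other library, the day 5 and day 7 peaks lay 652 bp downstream of a start site, and the ESC peak lay at an internal start site.

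The transcription factor genes were open more widely, and 1 of 10, Ikzf3, had a promoter peak on day 3 and on neither neighbouring day. Bcl11b, which fixes the T cell fate, had a peak in all 20 libraries, with 7 on day 1, 81 on day 3, 22 on day 5 and 46 in MEFs. Gata3 had 91 on day 3, 86 on Nanog day 7, 85 in MEFs and up to 94 in ESCs, so that its day 3 pileup was within the range of the other libraries. Ets1 likewise had 83 on day 3, 68 on Nanog day 7 and 100 in MEFs. Satb1, a chromatin organiser of thymocytes, had 78 on day 3 and 5 to 34 elsewhere. Runx3, which acts in CD8 T cells, had 86 on day 3, 7 on day 1 and 8 on day 5, and its element 195 bp upstream of the 5′ end at chr4:135119906-135120758 was open on day 3, in MEFs and in ESCs (pileup up to 9) but in no other time course library. Lef1 had 83 on day 3, 5 on day 5 and no peak on day 1. Tcf7, the partner of LEF1 in T cells, had 28 on day 3, below the 30 of NanogN70 day 12. Ikzf1, the gene of Ikaros, had 26 on day 3 and up to 42 in ESCs. Ikzf3 had 36 on day 3, 9 to 11 in ESCs and 5 to 8 on NanogN70 days 7, 10 and 12. Tbx21, the factor of type 1 helper T cells, had 27 on day 3, 13 to 17 in ESCs and 4 to 8 in 5 other time course libraries.

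The promoter peaks of the 37 genes ranked high among all peaks of the day 3 library, with a median score above 84.8% of them and quartiles of 73.2% and 91.6%. They spanned 18.8% (Cd8a) to 95.9% (Ets1), 12 genes were at or above 90%, and Cd8a and Ptprc were below 50%. Compared with genes that had a promoter peak in the same library, the 37 were of moderate strength, since their median score of 684.77 lay at the 30.9th percentile of the 14779 such genes, whose median was 1345. In the other 19 libraries the corresponding percentile, over the genes with a peak there, was 15.6 to 39.0. The day 3 pileup was the highest of the 16 time course libraries at 34 genes, the exceptions being Il7r, Ptprc and Tcf7, and the highest of all 20 libraries at 29, against 64% and 57.6% of the 14779 genes with a promoter peak on day 3. These pileups are not scaled to depth. Divided by the shared median, and taken at whichever promoter element was strongest in each library, day 3 was highest in the time course at 30 genes and in the whole series at 27, against 16.9% and 13% of the 14779. Summed over the 37 genes, it was 2071 on day 3 and 148 to 580 in the other libraries, or 34.5 and 7.72 to 16.2 times the shared median of the same library.

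Strength on days 1, 3 and 5 can be set side by side only at the same element, since several genes were open at different elements on these days. In promoter windows of the 37 genes, 11 regions with a day 3 peak also had a peak on days 1 and 5, and they lay at 8 genes (Cd6, Il7r, S1pr1, Coro1a, Bcl11b, Gata3, Ets1 and Runx3). The pileup divided by the shared median of the library was higher on day 3 than on both other days at 6 of the 11, against 32.3% of the 13711 such regions of all protein-coding genes. These 6 were at Cd6, Bcl11b, Runx3, Coro1a (2 regions) and Gata3. The day 3 to day 1 ratio of these relative pileups was 3.09 at Bcl11b, 2.22 at Cd6, 2.08 and 1.96 at Coro1a and 1.45 at Runx3. At Gata3 it was 2.27 in one region and 0.90 in the stronger one. It was 0.85 at S1pr1, 0.63 at Ets1, and 0.44 and 0.17 at the Il7r regions. The median ratio was 1.45 over the 11 regions and 0.884 over the 13711, and against day 5 the medians were 1.41 and 0.926.

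Counted by element rather than by gene, the promoter windows of the 37 genes held 129 separate peak regions over all libraries. On day 3, 92 were open, of which 50 (54.3%) were open in no other library and 74 (80.4%) on neither day 1 nor day 5. For promoter regions of all protein-coding genes on day 3 these shares were 12.9% and 24.4% of 21444 regions. A promoter element open on day 3 and in no other library was found at 28 of the 37 genes (9.53% of all genes), and one open on neither day 1 nor day 5 at 33 (17% of all genes). The 4 genes without an element of the latter kind were Ets1, Ikzf1, Bcl11b and S1pr1. The highest-scoring day 3 element lay within 500 bp of a start site at 24 genes, and at Gata3 it was nearer to the start of another gene, 9230102O04Rik (81 bp against 543 bp). Of the other regions, 36 had no peak on day 3, and 1 at Cd6 had its day 3 peak just outside the window. Of the 36, 4 were open on both day 1 and day 5, and these were at Lck and Cd247. Under the 2 kb rule, the farthest qualifying peak edge was 1921 bp from a start site (Il7r, pileup 19) and the nearest one left out was at 2010 bp (Cd6, pileup 38).

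The promoter peaks of 4 genes are shown to let the sequence be read beside the values, from the highest-scoring promoter peak of each group on day 3. The bases are the reference genome GRCm38 (mm10) within 50 bp of the summit, on the gene's strand, without annotated untranslated bases, and capitals mark a RUNX motif. The windows of Cd3d and S1pr1 lay wholly in untranslated exon and are not shown.
Lat, chr7:126369542-126369593, minus strand: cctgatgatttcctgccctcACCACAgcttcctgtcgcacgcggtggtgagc
Cd28, chr1:60746335-60746357, plus strand: tgagtcccttgatcatgtgccct
Rac2, chr15:78564070-78564170, minus strand: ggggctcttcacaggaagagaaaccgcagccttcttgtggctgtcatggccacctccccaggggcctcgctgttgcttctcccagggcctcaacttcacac
Ets1, chr9:32695963-32696021, plus strand: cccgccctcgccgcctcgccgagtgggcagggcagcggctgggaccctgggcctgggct

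The surroundings of the genes also held more peaks on day 3. All 37 genes had a peak within 20 kb of their span on NanogN70 day 3 (81.4% of all genes), but so did 34 on day 1, 34 on day 5 and 27 to 35 in the remaining time course libraries, 34 in MEFs (85.4% of all genes) and 34 to 35 in ESCs (85% of all genes in all 3). Cd3e and Cd53 had a nearby peak on day 3 and on neither day 1 nor day 5 (1.42% of all genes). The number of separate peaks near the 37 genes was 483 on day 3, 128 on day 1 and 158 on day 5, 93 to 181 over all other time points, 221 in MEFs and 202 to 247 in ESCs. Per gene this was a mean of 13.4 peaks near the 37 genes and 5.04 near all genes on day 3, a ratio of 2.67, and the ratio was 0.742 to 1.05 in the other 19 libraries. At 30 of the 37 genes there were more nearby peaks on day 3 than in each of the other 19 libraries (6.05% of all genes).

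The highest numbers of nearby peaks on day 3 were at Lef1, Ikzf1, Ets1 and Cd247. Lef1 had 27 peaks within 20 kb on day 3, against 2 on day 1 and 9 on day 5, but 24 in ESC replicate 2. Ikzf1 had 26, against 2 and 3 and at most 8 in any other library, and 21 of its 26 were open in no other library. Ets1 had 26, against 14 and 8, but 21 in MEFs. Cd247 had 26, against 4 and 11, but 18 in MEFs. Runx3 had 21, against 1 and 2, and at most 13 in any other library. Lcp2 had 16, against 1 and 1, and at most 4 in any other library. Cd3e had 10 peaks on day 3, none on days 1 and 5 and up to 2 elsewhere. At the low end, Cd8a and Cd53 had 4 nearby peaks on day 3. The windows differ in length with the gene, and those of Cd3e, Cd3g and Cd3d overlap, with 8 day 3 peaks shared by Cd3g and Cd3d and 6 shared by Cd3e with each of them.

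Of the 464 day 3 regions within 20 kb of the 37 genes, 278 (59.9%) were open in no other library and 364 (78.4%) on neither day 1 nor day 5. Near any protein-coding gene these shares were 22.7% and 38.9% of 61589 regions. Each of the 37 genes had at least 2 nearby regions that were open on day 3 and in no other library (1 or more at 36.6% of all genes, and 1 or more open on neither day 1 nor day 5 at 53.1%), with a median of 7 and a maximum of 21. The share open in no other library was 54.3% of 92 regions in promoter windows, 65.8% of 193 regions elsewhere in the gene span and 56.4% of 179 regions in the flanks. Regions inside the gene span and in the flanks had a median pileup of 19, below the 33.5 of the promoter regions.

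The highest-scoring of these regions that were open in no other library and free of exon bases show what lay under the day 3 peaks. They were chosen after their values were seen. Each is given as its summit with 50 bases on either side on GRCm38 (mm10), on the gene's strand, and capitals mark matches to the motifs named beside it.
Tcf7, upstream of the gene, summit 16736 bp from the nearest start site, pileup 102, no motif, chr11:52299700-52299800: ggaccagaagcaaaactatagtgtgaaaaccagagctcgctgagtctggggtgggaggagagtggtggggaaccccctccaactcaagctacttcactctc
Ubash3a, intron, pileup 57, ETS, PU.1, GATA and SOX motifs, chr17:31223995-31224095: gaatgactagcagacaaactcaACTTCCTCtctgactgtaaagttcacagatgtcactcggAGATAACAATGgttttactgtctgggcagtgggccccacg
Cd27, downstream of the gene, pileup 68, ETS and PU.1 motifs, chr6:125222307-125222407: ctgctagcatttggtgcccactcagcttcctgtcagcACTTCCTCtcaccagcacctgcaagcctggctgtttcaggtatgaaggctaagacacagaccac
Cd4, intron, pileup 67, TCF/LEF motif, chr6:124885280-124885380: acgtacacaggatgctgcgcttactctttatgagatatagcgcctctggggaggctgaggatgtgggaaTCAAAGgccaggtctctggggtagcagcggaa
Tcf7, intron, pileup 104, ETS motif, chr11:52265636-52265736: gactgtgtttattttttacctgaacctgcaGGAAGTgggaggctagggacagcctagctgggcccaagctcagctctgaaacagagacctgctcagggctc
The intronic peak of Rac2 printed above belongs to the same set. Both Tcf7 regions were stronger than the promoter peak of the gene (pileups of 102 and 104 against 28), and neither had a peak in any other library.

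Short motifs were searched on both strands within 50 bp of the summit of each day 3 region, a measure that did not enter the choice of genes. ETS factors were represented by the letters GGAAGT and the related PU.1 by GAGGAAG, which can overlap. RUNX factors were represented by TGTGGT, the TCF/LEF family by CTTTGA and GATA factors by AGATAA. An E-box was read as CAGCTG, an AP-1 site as TGANTCA and a TEAD site as GGAATG. The OCT letters were ATGCAAA and the SOX letters were ACAATG. Regions are not replicates, so no test is given. Near the 37 genes, the 278 regions open in no other library held the ETS letters in 17.3% and the RUNX letters in 16.9%, against 7.94% and 4.76% of the 63 nearby regions that were also open on days 1 and 5. Over all 76648 day 3 regions searched the shares were 11.5% and 11.2%. The PU.1 letters were in 9.71%, 4.76% and 5.35% of the same 3 sets, those of TCF/LEF in 8.27%, 4.76% and 6.27%, and those of GATA in 7.55%, 1.59% and 3.45%. The TEAD letters, a family that acts in fibroblasts, were in 1.80%, 1.59% and 4.06%, and the OCT letters in 1.44%, 3.17% and 2.86%. E-box letters were in 8.99%, 6.35% and 9.09% of the same 3 sets and AP-1 letters in 8.27%, 3.17% and 7.06%. The SOX letters were in 3.60% of the 278 regions, 7.94% of the 63 (5 regions) and 4.41% of all day 3 regions. Like the OCT letters (2 of the 63 regions), they were less frequent in the 278 regions than in both other sets.

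The shares near the 37 genes were close to those of the other regions of the library that were open in no other library. In the 17584 such regions away from the 37 genes, ETS letters were in 18.6%, RUNX letters in 17.5%, PU.1 letters in 8.71% and TCF/LEF letters in 8.55%. GATA letters were in 5.32% and AP-1 letters in 5.75%, each somewhat below the share near the 37 genes (7.55% and 8.27%, or 21 and 23 regions). Both ETS and RUNX letters were found together in 3.96% of the 278 regions (11 regions), 2.90% of the 17584 others and 0.568% of all day 3 regions also open on days 1 and 5. The median GC content was 51.5% in the 278 regions and 58.4% in the 63 nearby regions open on all 3 days, so base composition differed between these sets.

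**Figure D3:**
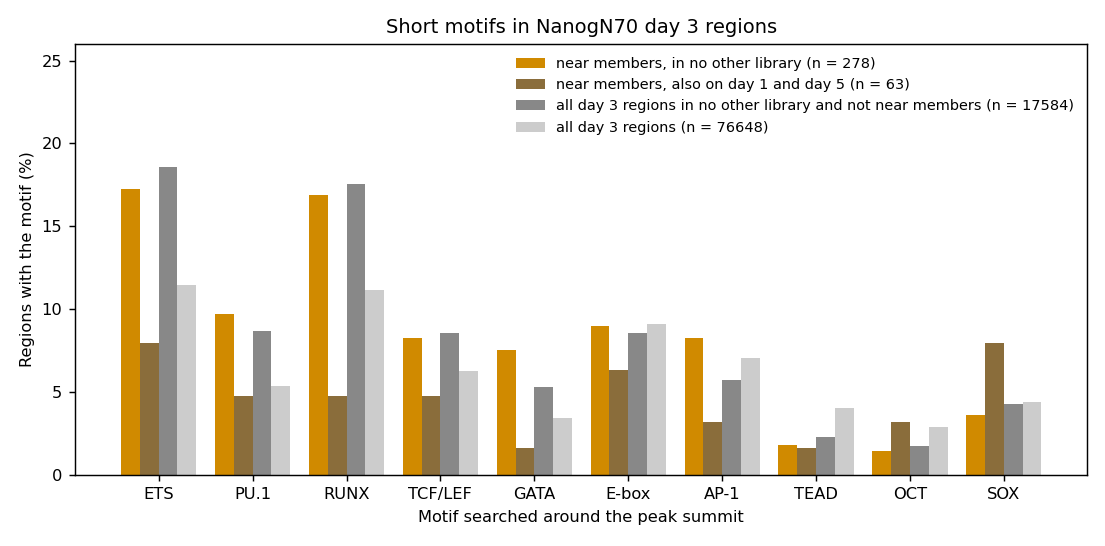
Share of NanogN70 day 3 regions (in %) that hold each of 10 short motifs within 50 bp of the summit, in 4 sets of regions named in the key. ETS and RUNX letters are in 17.3% and 16.9% of the 278 regions near the 37 genes open in no other library (orange), close to the 18.6% and 17.5% of the other regions open in no other library (dark grey) and above the 11.5% and 11.2% of all day 3 regions (light grey).

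Lists of other genes show which further cell type genes had promoter peaks in the same library. Of 22 other genes for signalling from the T-cell receptor, all 22 had a promoter peak on day 3, against 12 on day 1 and 15 on day 5. The 7 with a peak on day 3 and on neither neighbouring day included Vav1 (pileup 86), Ptpn22 (58), Sla2 (64) and Sh2d2a (62). The summed pileup of the 22 genes was 1792 on day 3 and 248 to 720 in the other time course libraries, or 29.9 and 14.1 to 19.4 times the shared median of the same library. Of 14 genes of effector, memory and regulatory T cells, 13 had a peak on day 3, 2 on day 1 and 4 on day 5, and 9 had one on day 3 alone of these days. The strongest of the 9 included Cxcr5 (45), Il2ra (34), Ctla4 (55), Gzmb (19), Ccr6 (34) and Pdcd1 (30), and Il17a had no peak. Of 6 genes of naive T cells, 6 had a peak, with Ms4a4b (33) among those open on day 3 alone. The summed pileup of the 14 genes was 6.87 times the shared median on day 3 and 1.25 to 3.86 times in the other time course libraries, and that of the 6 naive T cell genes 4.92 and 2.94 to 4.88 times. Of 8 immature thymocyte genes, 6 had a peak on day 3 (summed pileup 3.15 times the shared median, within the 2.25 to 4.64 of the other time course libraries), with Dntt (48) and Rag1 (5) on day 3 alone and none at Rag2 and Ptcra.

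Genes of natural killer cells, B cells and myeloid cells had a promoter peak on day 3 in part only. Of 9 natural killer genes 5 had a peak on day 3, among them Il2rb (119), Prf1 (27) and Gzma (12), which T cells also use, and the natural killer receptor genes Ncr1, Klrb1c, Klrk1 and Klre1 had none. The summed pileup of the 9 genes was 3.38 times the shared median on day 3, against 0.154 to 1.58 in the other time course libraries. Of 12 B lymphocyte genes 7 had a peak, and Blk (11) and Cd79b (13) were among those without one on day 1 or day 5. There was none on day 3 at Cd79a, Ms4a1, Fcer2a, Bank1 and Blnk. The summed pileup of the 12 genes was 145 on day 3, 152 in MEFs and up to 275 in ESCs, and at 2.42 times the shared median it lay within the 2.11 to 5.46 of the other time course libraries. Of 14 myeloid genes 6 had a peak, and Mpo (23) and Spi1 (42) had none on day 1 or day 5. Over the whole series, Mpo had a peak in 7 other libraries and Spi1 in 2. There was none on day 3 at Itgam, Cd68, Lyz2, Elane, Adgre1, Ly6g, S100a8 and S100a9. The summed pileup of the 14 genes was 139 on day 3, 114 in MEFs and up to 142 in ESCs. At 2.32 times the shared median it lay within the 0.696 to 3.46 of the other time course libraries. At the antigen receptor loci, Trac had a promoter peak of 85 on day 3 (10 on day 1 and 7 on day 5), Trbc2 one of 17 (5 on day 1 and up to 40 in another library) and Ighm one of 11, while Trbc1, Trdc, Ighd and Igkc had none. The 7 receptor genes summed to 113 on day 3, 61 in MEFs and 0 to 29 in the other time course libraries, or 1.88 times the shared median on day 3 and 0 to 1.5 times in the other time course libraries.

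The remaining lists had few genes or none that were open on day 3 alone of these days. On day 3, 3 of 6 dendritic cell genes, 6 of 8 endothelial, 1 of 8 hepatocyte, 7 of 8 neuron and 2 of 7 skeletal muscle genes had a promoter peak, and none of these genes had one on day 3 alone of the 3 days. The same was true of the 8 fibroblast genes with a peak and of 10 of 12 pluripotency genes with one, and Zfp42 and Dppa5a, markers of naive pluripotency, had none on day 3. Only genes with no peak on both neighbouring days could be open on day 3 alone. These were 3 dendritic, 2 endothelial, 6 hepatocyte, 4 muscle and 2 pluripotency genes, and no neuron or fibroblast gene. As multiples of the shared median, the summed pileups on day 3 and in the other time course libraries were 0.9 and 0.875 to 2.17 for dendritic, 2.35 and 1.46 to 3.38 for endothelial, 0.45 and 0.375 to 1.26 for hepatocyte, 3.9 and 3.30 to 6.5 for neuron, and 1.08 and 0 to 1.15 for muscle genes. They were 3.62 and 3.36 to 8.63 for fibroblast genes, and 6.12 and 5.57 to 82.9 for pluripotency genes, where the vectors add to Nanog and Pou5f1. For each of these 7 lists the day 3 value lay within the range of the other time course libraries. Relative to the shared median, each fibroblast gene but Thy1 was nonetheless lower on day 3 than on both neighbouring days. Of 11 erythroid and megakaryocyte genes 7 had a peak (5.05, against 3.06 to 6.19), with Gata1 (23) and Tal1 (14) on day 3 alone, and of 8 epidermal genes 3 had one (1.5, against 0.522 to 1.32), with Sfn (53) on day 3 alone. The part of other cells, depth or handling in the values of the 37 genes was not tested.

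**Figure D4:**
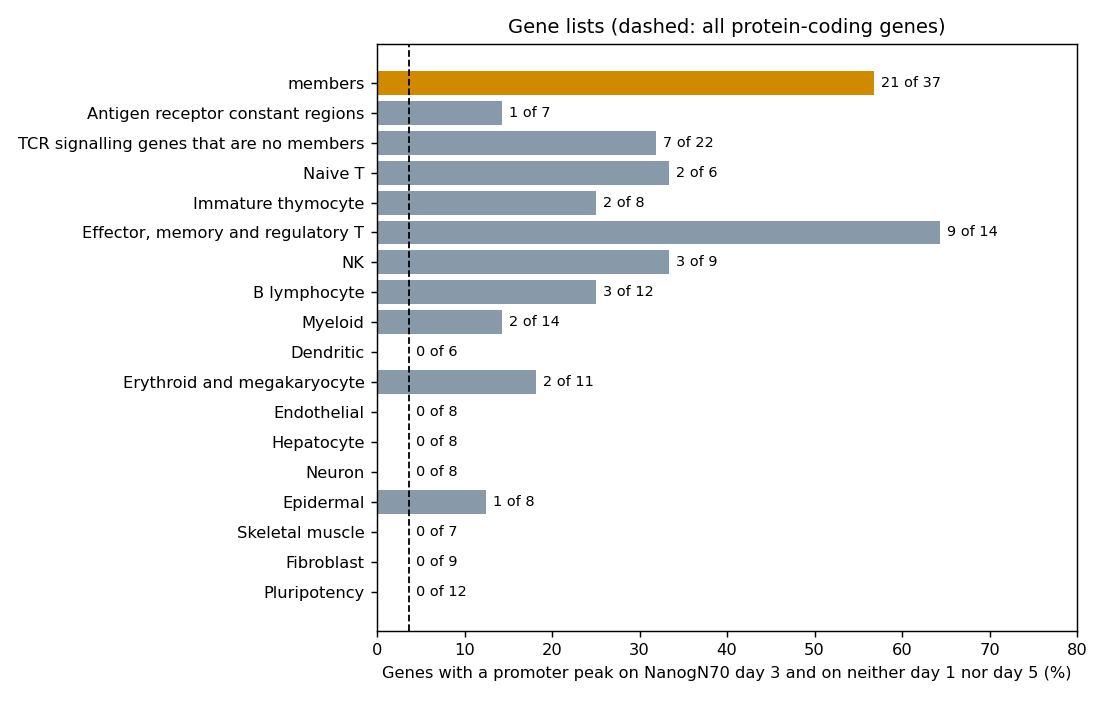
Share of genes (in %) with a promoter peak on NanogN70 day 3 and on neither day 1 nor day 5, for the 37 genes (orange) and 17 other lists (grey), with counts beside the bars and the share of all protein-coding genes (3.6%) as a dashed line. The 37 genes (21 of 37) and the lists of effector, memory and regulatory T cells (9 of 14), naive T cells (2 of 6), natural killer cells (3 of 9) and T-cell receptor signalling (7 of 22) reach furthest, and 7 lists are at 0. Only genes without a peak on day 1 and day 5 could count, and no neuron or fibroblast gene was of that kind.

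Away from day 3, some of the 37 genes had promoter peaks in MEFs and not in ESCs, or the reverse. The 4 genes Cd28, Cd27, Il7r and Cd53 had a promoter peak in MEFs and in no ESC library (2.82% of all genes). The 8 genes Cd8a, Lat, Ubash3a, Cd2, Cd6, Ptprc, Ikzf3 and Tbx21 had one in all 3 ESC libraries and not in MEFs (4.18% of all genes). Of these 8, 5 had a peak on at least one of NanogN70 days 7 to 12 (Cd2, Cd6, Ptprc, Ikzf3 and Tbx21) and 4 on at least one of Nanog days 7 to 12 (the same without Ikzf3). Lck, S1pr1, Coro1a, Bcl11b, Gata3, Ets1 and Satb1 had a promoter peak in all 20 libraries, as did 53.7% of all genes. On day 12, Tcf7 had a pileup of 30 in the NanogN70 path and 10 in the Nanog path, and Ets1 63 and 44, with shared medians of 41 and 24 in those libraries. Divided by the shared median, Tcf7 had 0.73 and 0.42 and Ets1 1.54 and 1.83, so the order of the paths turned at Ets1.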

How the data were processed

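The data are ATAC-seq peak lists of 20 mouse libraries. The authors trimmed reads with Trim Galore 0.6.4, aligned them to mm10 with Bowtie2 2.4.5, filtered them with SAMtools 1.16.1 and called peaks in each library separately with MACS 1.4.2, without a model and with duplicates kept. The deposited peak score is read as the MACS p-value on a scale of -10 log10 (lowest 50). The deposited summit signal is the pileup, or coverage in tags, a whole number not scaled to depth. Read depth is not stated in these sources, and a weakly open site may lack a peak in a shallow library.

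Promoter windows reached 2 kb to each side of every GENCODE M21 start site. Overlapping peaks (1 bp or more) of all libraries were joined into regions. The reference was GRCm38, and the last peak lay inside it on all 21 chromosomes compared. Rank is the share of a library's peaks with a lower score. Python 3 with pandas, NumPy and pysam was used, and the overlap and motif code was tested on simulated data. The groups came from the sample titles.

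The 37 genes, the gene lists and the motifs were chosen with earlier results of these data known. All 37 genes are named. Of other lists, up to 6 genes with a promoter peak on NanogN70 day 3 and on neither day 1 nor day 5 are named by score, and further names were added after their values were seen. Some genes of these lists are not reported here by name. No test was run, since each condition but ESC has 1 library. Alternatives were a minimum score of 100, equal numbers of top peaks, narrower windows, the 5′ end of the gene alone, and the summit inside the window.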

Additional observations from a re-analysis of the deposited data

Results flagged for a closer look

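The change from day 3 to day 5 went in opposite directions in the paths. The number of the 37 genes with a promoter peak changed by -21 in the NanogN70 path (37 to 16) and by 2 in the Nanog path (13 to 15). The share of all protein-coding genes with a promoter peak moved in the same opposite directions, from 67.3% to 66.2% and from 63.5% to 66.4%. The number of separate peaks within 20 kb of these genes changed by -325 (483 to 158) and by 32 (117 to 149). The mean number of peaks near all genes also fell in the NanogN70 path (5.04 to 4.72) and rose in the Nanog path (3.72 to 5.16). The opposite directions were thus not particular to the 37 genes. The sizes differed, since the means near the 37 genes went from 13.4 to 4.32 and from 3.24 to 4.08. There is 1 library per day and path, and the difference was not tested.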

How the results depend on the processing

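Of 46 recomputed values, 31 stayed within 1.5 times the count or within the spread, and 15 did not. On NanogN70 day 3, the number of genes with a promoter peak was 35 to 37 under the alternatives. Those without one were Cd8a and Ptprc with a minimum score of 100 or with the 44126 top peaks of each library, Cd4 with a 1 kb window or with the summit inside the window, and Cd28 with the 5′ end of the gene alone. The number open on day 3 and on neither day 1 nor day 5 was 21 to 24, and the highest number in another time course library was 14 to 20. The number open in no other library, 7, became 12 with a minimum score of 100, 13 with equal numbers of peaks and 11 with the 5′ end alone. The share of all genes open on day 3 and on neither neighbouring day was 5.01%, 4.33% and 4.06% under the same settings. The median rank was 75.2% with a minimum score of 100, 71.4% with equal numbers of peaks, 84.9% with a 1 kb window, 83.7% with the 5′ end alone and 84.9% with the summit inside the window. A minimum score and an equal number of top peaks both remove low peaks from the ranking by construction. The ESC mean of 23.7 became 19.7, 17.7, 22.3 and 17.7 with a minimum score of 100, equal numbers of peaks, a 1 kb window and the 5′ end alone, and 23.5 to 24 without one of the ESC libraries. The cause of the other shifts was not tested. No paired analysis was possible because no groups compared share 2 or more replicate numbers, and the days that both paths share are time points, not replicates. The unknown depth limits every statement that a site lacked a peak.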
